A study of Mus musculus with 12 samples.

Results

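Activated microglia genes are described here by 10 genes that microglia, the resident macrophages of the brain, express at higher levels when they respond to damage, protein deposits or age: Clec7a, Itgax, Trem2, Tyrobp, Axl, Cd68, Mpeg1, Ctss, Cst7 and Lgals3. Every probe set that the array's annotation pairs with 1 of these symbols and no other gene was taken, which gave 12 of 45037 probe sets, for 10 of 18193 genes. Axl and Trem2 had 2 probe sets each and the other genes had 1, and no probe set was left out for a low value. Where a gene had more than 1 probe set, the one with the highest mean over all samples represents it below.

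The tissue was the VTA (ventral tegmental area), a part of the midbrain rich in dopaminergic neurons, which was dissected by hand as a whole from wild type mice, C57 per the labels and C57BL/6 in the study's methods. The ages compared were 2 months (young), 10 months (middle-aged) and 18 months (late middle-aged). Each age had 4 arrays, and each array held pooled RNA of 5 mice (60 mice in all). No treatment or allele distinguished the groups, and the sexes pooled are not given by the labels. Young arrays 3 and 4 were nearly identical (correlation 0.998, with 1 probe set more than 1 log2 unit apart, against 0.967 to 0.996 and 85 to 4905 probe sets in other pairs of the same age), so the pair was averaged and treated as a single sample (n = 3, 4 and 4 by age). Values are log2 expression values from RMA, which ran from 2.40 to 14.7 with array medians of 6.11 to 6.21. Th and Slc6a3, which mark dopaminergic neurons, lay at mean levels of 13.6 and 14.0, and 13 of 14 listed genes of homeostatic microglia were measured, none of them below the lower quartile of every array.

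In the resting state microglia express sensors such as P2ry12 and Tmem119. When they engage dying cells, lipids or plaques, TREM2 signals through its adaptor TYROBP to the kinase SYK, homeostatic genes are turned down, and phagocytic receptors, lysosomal proteins and proteases are turned up. Clec7a, Itgax, Cst7 and Axl belong to the later step of that programme, while Trem2, Tyrobp and Ctss are also expressed by resting microglia.

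Between 2 and 18 months, 7 of the 10 genes rose in the VTA and none fell. Clec7a rose most, 4.13-fold, followed by Cd68 (2.71-fold), Lgals3 (2.58-fold), Mpeg1 (2.37-fold), Cst7 (2.15-fold), Ctss (1.61-fold) and Itgax (1.40-fold). Axl, Trem2 and Tyrobp were not called. Clec7a, Mpeg1 and Ctss kept the call in all 11 fits that left out 1 sample, Cd68 lost it without young array 1, and Cst7 and Lgals3 without young array 1 or young array 2. Itgax kept its call in 3 of the 11 fits. With a covariate for the gap between 3′ and 5′ signal of control probe sets, described further on, no member was called. A gene was called when its adjusted p from limma was under 0.05 and its change exceeded 1.3-fold, and by that rule 5.77% of all genes rose and 3.05% fell. Unadjusted p was under 0.05 for 8 of the 10 genes, against 25.9% of all genes. All samples at 18 months lay above all young samples for the same 7 genes that were called, as they did for 13.3% of all genes. The median log2 change of the 10 genes was 0.98, against -0.02 over all genes. In whole tissue, more microglia and more RNA per microglial cell cannot be told apart.

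**Figure D1:**
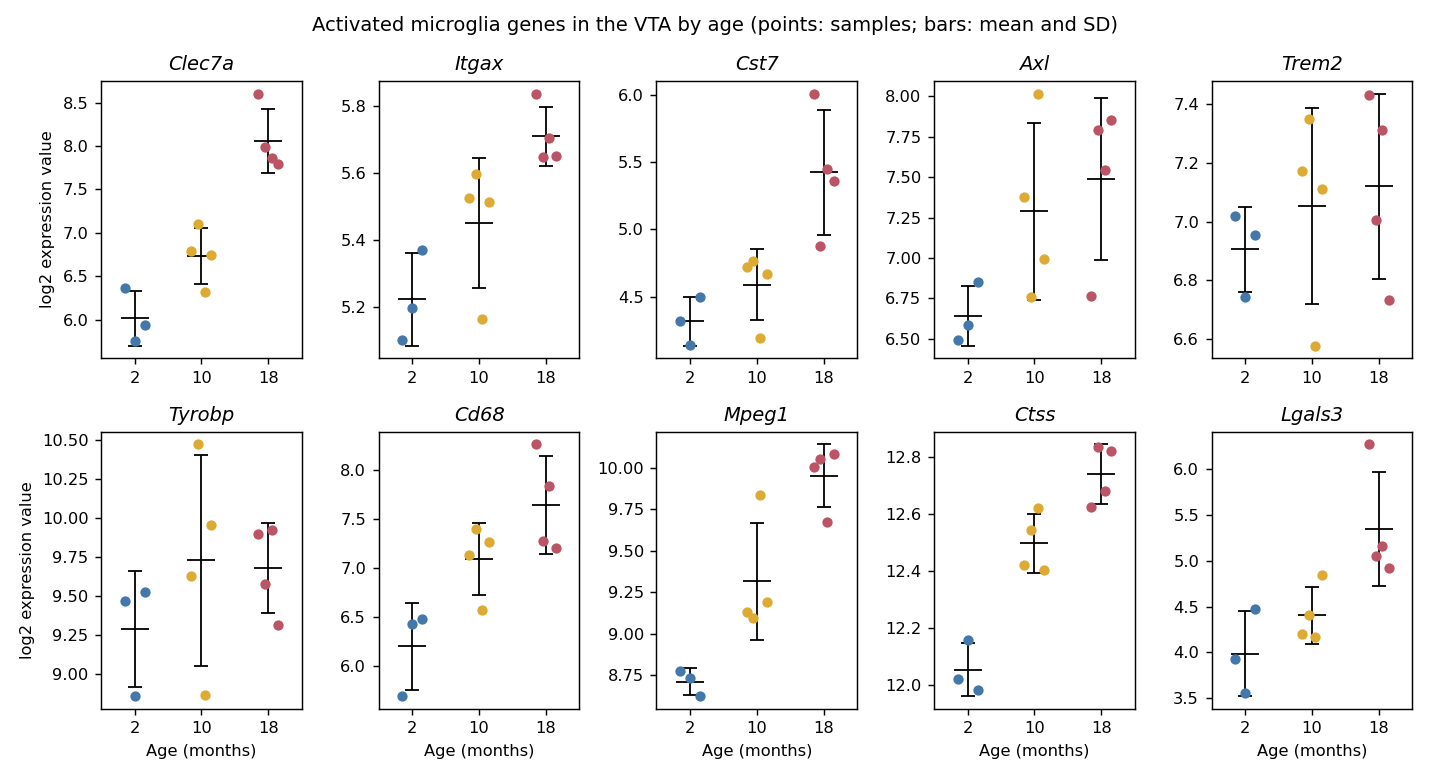
Log2 expression value (vertical axis) of each of the 10 genes at its brightest probe set against age in months. Points are samples (n = 3 at 2 months, 4 at 10 months and 4 at 18 months), and bars give the mean and SD. Clec7a rose from a mean of 6.02 at 2 months to 8.06 at 18 months, while the points of Trem2, Tyrobp and Axl overlap between these 2 ages.

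Among the receptors, Clec7a (Dectin-1), a lectin that binds beta-glucans and signals through SYK, had log2 values of 6.36, 5.75 and 5.93 at 2 months. It lay at 6.79, 7.10, 6.31 and 6.74 at 10 months, and at 8.60, 7.99, 7.86 and 7.80 at 18 months. Every sample at 18 months was above every younger sample, whereas the samples at 2 and 10 months overlapped. The means were 6.02 ± 0.31 (SD, n = 3), 6.74 ± 0.33 (SD, n = 4) and 8.06 ± 0.37 (SD, n = 4). The log2 change from 2 to 18 months was 2.05 ± 0.23 (SE; 95% interval 1.54 to 2.55; limma, adjusted p = 0.00327), which placed Clec7a at rank 2 of 18193 genes by the size of its increase.

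Itgax (CD11c), an integrin alpha chain of dendritic cells and of activated microglia, was dimmer. Its log2 values were 5.10, 5.20 and 5.37 at 2 months, 5.53, 5.60, 5.16 and 5.51 at 10 months, and 5.84, 5.65, 5.70 and 5.65 at 18 months. The samples at 18 months were all above the others, by as little as 0.05 over the highest at 10 months. The log2 change from 2 to 18 months was 0.49 ± 0.12 (SE, limma, adjusted p = 0.0364), and this call was the weakest of the 7: it was kept in 3 of the 11 fits that left out 1 sample. It was lost without young array 1 or 2, without array 1 or 4 at 10 months, and without any array at 18 months. Itgb2, the beta chain with which Itgax pairs, rose by a log2 change of 1.38 ± 0.19 (SE).

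Trem2, the lipid-sensing receptor, had log2 values of 7.02, 6.74 and 6.96 at 2 months, 7.17, 7.35, 6.58 and 7.11 at 10 months, and 7.43, 7.01, 7.31 and 6.73 at 18 months. The ages overlapped throughout. Its log2 change from 2 to 18 months was 0.22 ± 0.20 (SE), with a 95% interval of -0.22 to 0.65 and an adjusted p of 0.57 from limma. The dimmer probe set of Trem2 had mean levels of 5.22, 5.43 and 5.22 at the 3 ages and a log2 change of 0.00, with an interval of -0.30 to 0.31.

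Tyrobp (DAP12), the adaptor through which Trem2 and other receptors reach SYK, lay higher, at 9.47, 8.86 and 9.53 at 2 months, 9.63, 10.47, 8.86 and 9.95 at 10 months, and 9.90, 9.58, 9.92 and 9.32 at 18 months. The samples at 10 months covered the range at 18 months and nearly all of that at 2 months, whose lowest value was just below theirs. Its log2 change from 2 to 18 months was 0.39 ± 0.32 (SE; 95% interval -0.30 to 1.09; limma, adjusted p = 0.506). At the brightest probe sets, neither interval, for Trem2 or for Tyrobp, held the change of Clec7a, and neither left out a change of 1.3-fold. The interval of the dimmer Trem2 probe set (-0.30 to 0.31) left out both.

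Axl, a TAM receptor tyrosine kinase that takes part in the clearance of dying cells, had log2 values of 6.49, 6.59 and 6.85 at 2 months. They were 7.38, 6.76, 8.02 and 7.00 at 10 months, and 6.76, 7.79, 7.54 and 7.85 at 18 months. Array 1 at 18 months lay among the young samples while its other arrays lay above them. The log2 change from 2 to 18 months was 0.84 ± 0.31 (SE; 95% interval 0.18 to 1.51; limma, adjusted p = 0.119). Without array 3 at 10 months or without array 1 at 18 months Axl was called, with a log2 change of 1.09 in the fit without array 1. The second probe set of Axl lay between 2.88 and 3.24, below the lower quartile of every array, and had a log2 change of -0.19 ± 0.10 (SE).

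Among the lysosomal and phagocytic genes, Cd68 (macrosialin), a glycoprotein of the late endosome, had log2 values of 5.70, 6.43 and 6.48 at 2 months, 7.13, 7.40, 6.57 and 7.27 at 10 months, and 8.26, 7.27, 7.83 and 7.20 at 18 months. Both older ages were above all young samples and overlapped each other. Its log2 change from 2 to 18 months was 1.44 ± 0.29 (SE; 95% interval 0.81 to 2.07; limma, adjusted p = 0.0153).

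Mpeg1 (perforin-2), a pore-forming protein of phagocytes, had log2 values of 8.78, 8.73 and 8.62 at 2 months, 9.13, 9.10, 9.84 and 9.19 at 10 months, and 10.00, 10.05, 9.67 and 10.08 at 18 months. The young samples lay within a narrow band and below all others. Array 3 at 10 months stood apart from its group and reached into the range at 18 months. The log2 change from 2 to 18 months was 1.24 ± 0.18 (SE; 95% interval 0.86 to 1.63; limma, adjusted p = 0.00492).

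Ctss (cathepsin S), a cysteine protease that stays active outside the lysosome and cleaves the invariant chain of MHC class II, had log2 values of 12.02, 12.16 and 11.98 at 2 months. They were 12.42, 12.54, 12.62 and 12.40 at 10 months, and 12.62, 12.84, 12.68 and 12.82 at 18 months. The ages did not overlap, although the highest value at 10 months and the lowest at 18 months differed by 0.00492. Its log2 change from 2 to 18 months was 0.69 ± 0.10 (SE; 95% interval 0.46 to 0.91; limma, adjusted p = 0.00579), the smallest SE of the 10 genes.

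The remaining genes act on proteases and glycans. Cst7 (cystatin F), an inhibitor of lysosomal cathepsins, had log2 values of 4.32, 4.14 and 4.50 at 2 months, 4.72, 4.77, 4.20 and 4.67 at 10 months, and 6.01, 4.88, 5.45 and 5.36 at 18 months. All samples at 18 months were above all others. By 18 months the log2 change against 2 months was 1.11 ± 0.23 (SE; 95% interval 0.60 to 1.61; limma, adjusted p = 0.0174).

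Lgals3 (galectin-3), a beta-galactoside-binding lectin that phagocytes secrete, had log2 values of 3.93, 3.56 and 4.48 at 2 months, 4.20, 4.41, 4.16 and 4.84 at 10 months, and 6.27, 5.05, 5.16 and 4.92 at 18 months. Array 1 at 18 months was more than 1 log2 unit above the others of that age, and all 4 lay above the younger samples. The log2 change from 2 to 18 months was 1.36 ± 0.32 (SE; 95% interval 0.67 to 2.06; limma, adjusted p = 0.0265). Cst7 and Lgals3 lay below the lower quartile of their own array in all young samples, so their folds rest on young levels near the bottom of the measured range. At 10 months Lgals3 was below that quartile in arrays 1, 2 and 3, and Cst7 in array 3.

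**Figure D2:**
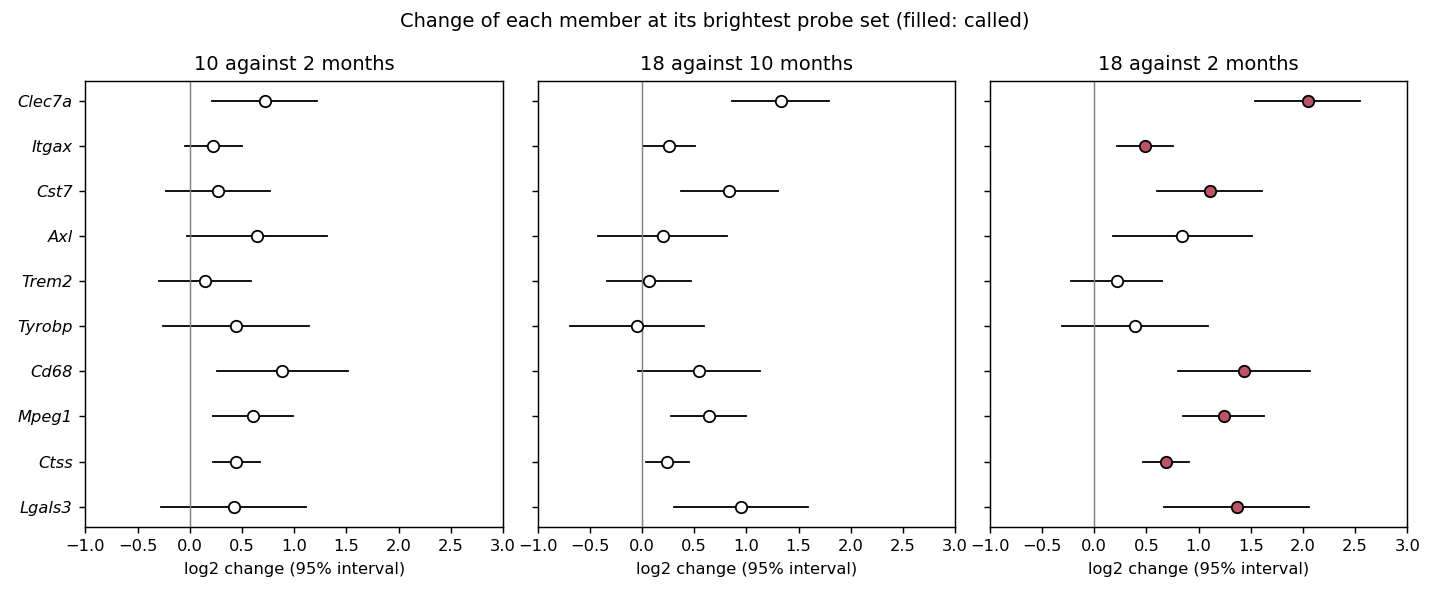
Log2 change of each gene at its brightest probe set (horizontal axis) with its 95% interval, for 10 against 2, 18 against 10 and 18 against 2 months, and filled points are called. The 7 filled points lie in the comparison of 18 with 2 months, from 0.49 for Itgax to 2.05 for Clec7a.

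From 2 to 10 months no member was called by limma, where 1.0% of all genes rose and 0.484% fell, although all 10 log2 changes were positive. The median was 0.44, against 0.02 over all genes. Unadjusted p was under 0.05 for 4 members (Clec7a, Cd68, Mpeg1 and Ctss), against 16.6% of all genes. Cd68, Mpeg1 and Ctss had no overlap between the ages, as did 7.74% of all genes in the upward direction. The lowest adjusted p was that of Ctss (log2 change 0.44 ± 0.10, SE; limma, adjusted p = 0.0585), and the largest change was that of Cd68 (0.89 ± 0.29, SE; limma, adjusted p = 0.149). Ctss was called when the 12 arrays were kept separate without a replicate block, with a log2 change of 0.46 (limma, adjusted p = 0.0303), and when the arrays were centred on their medians (0.49). In these settings 2.43% and 1.84% of all genes were called, against 1.48% in the fit above.

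From 10 to 18 months limma called no member either, and it called 0.0% of all genes. Unadjusted p was under 0.05 for 6 members, against 5.72% of all genes: Clec7a, Itgax, Cst7, Mpeg1, Ctss and Lgals3. Clec7a had a log2 change of 1.33 ± 0.21 (SE, 95% interval 0.86 to 1.79) and stood at rank 3 of all genes by its increase, yet its adjusted p was 0.847. Lgals3 changed by 0.95 ± 0.29 and Cst7 by 0.84 ± 0.21 on the log2 scale (SE). Clec7a, Itgax, Cst7, Ctss and Lgals3 had no overlap between 10 and 18 months, against 1.36% of all genes. The log2 changes of Trem2 (0.07 ± 0.19, SE) and Tyrobp (-0.05 ± 0.29, SE) were near 0.

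Clec7a, Cst7 and Lgals3 thus had the larger estimate after 10 months, and Axl, Cd68, Ctss and Tyrobp before it. For Itgax (0.23 before and 0.26 after), Mpeg1 (0.60 and 0.64) and Trem2 (0.15 and 0.07) the estimates were closer together. Cst7 and Lgals3 had values below the lower quartile of their array at both 2 and 10 months, which limits their estimate before 10 months. The difference between the intervals was itself tested, as the change from 2 to 10 months minus that from 10 to 18 months. No member passed in limma (lowest adjusted p = 0.902) and 0 members had an unadjusted p under 0.05, where 0.0% of all probe sets passed and 5.47% had such a p. Its value was -0.61 ± 0.38 (SE) for Clec7a, -0.57 ± 0.38 for Cst7 and 0.44 ± 0.50 for Axl on the log2 scale. The intervals share the samples at 10 months.

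Arrays of 1 age differed along an axis that the members followed in opposite ways. At 10 months, array 3 held the lowest value of 7 members (Clec7a, Itgax, Cst7, Trem2, Tyrobp, Cd68 and Lgals3) and the highest value of the other 3 (Axl, Mpeg1 and Ctss). Array 2 of that age held the highest value of 6 members. At 18 months array 1 was highest for 6 members and lowest for Axl and Ctss, while array 4 was lowest for 5. At 2 months the mean of arrays 3 and 4 was highest for 6 members and array 2 was lowest for 5.

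Over all probe sets, the first principal component of the deviations from the age means held 61.2% of their variance, and array 3 at 10 months had the most extreme score on it. With this component as a covariate, limma called 6 members at 10 against 2 months (Clec7a, Axl, Tyrobp, Cd68, Mpeg1 and Ctss), where 8.2% of all genes rose. It called 3 at 18 against 10 months (Clec7a, Cst7 and Mpeg1), where 0.616% rose, and 9 at 18 against 2 months, where 14.1% rose. The component was taken from the same values that were tested, so these p-values are too small. What set array 3 apart was not tested.

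**Figure D3:**
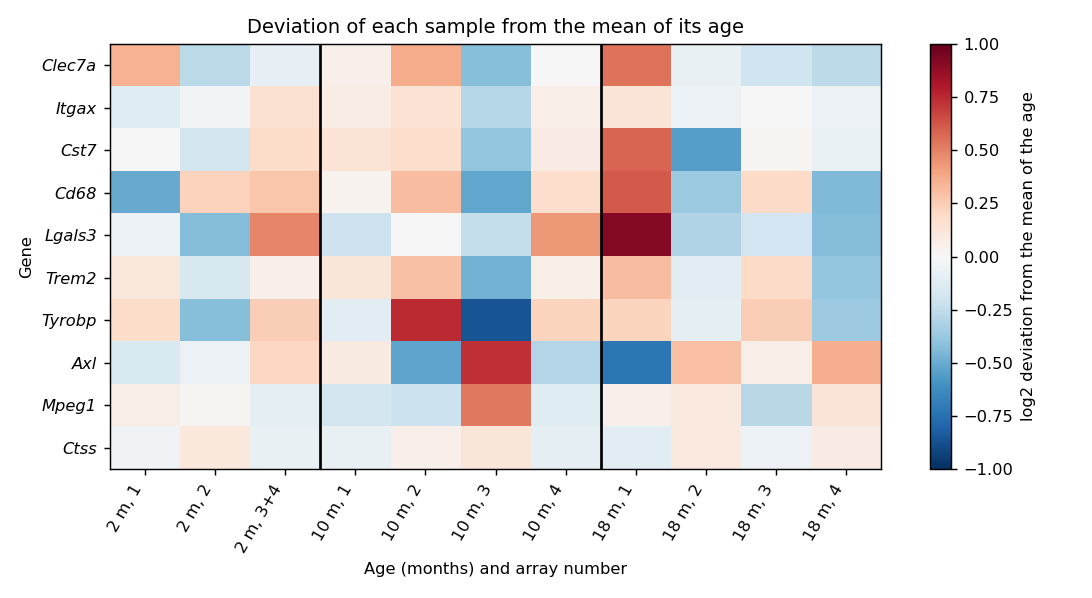
Deviation of each sample from the mean of its age (colour, log2 scale) for the 10 genes (rows) and 11 samples (columns, by age in months and array number, with young arrays 3 and 4 averaged). In the column of array 3 at 10 months 7 genes are below their mean while Axl, Mpeg1 and Ctss are above it.

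The control probe sets of the arrays also differed by age. For Actb and Gapdh the 3′ probe sets were brighter than the 5′ ones, a gap that grows as the labelled RNA becomes shorter. This gap averaged 3.47 ± 0.17 log2 units in young samples (SD, n = 3), against 2.15 ± 0.34 (SD, n = 4) in middle-aged and 1.98 ± 0.24 (SD, n = 4) in late middle-aged ones. The young samples (3.29 to 3.63) did not overlap the older ones (1.64 to 2.44). The added poly-A control RNAs had mean log2 values of 6.15 ± 0.13, 6.48 ± 0.08 and 7.04 ± 0.34 (SD) at the same ages.

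When this gap between 3′ and 5′ signal was entered as a covariate, limma called 0 members and 0.0% of all genes at 18 against 2 months. The median SE of the members grew from 0.23 to 0.63. The log2 change was 2.96 ± 0.59 (SE) for Clec7a, 2.50 ± 0.84 for Lgals3, 1.48 ± 0.50 for Mpeg1 and 0.73 ± 0.29 for Ctss, while Axl turned to -0.16 ± 0.82. The 7 called members thus kept a positive change and lost the call. Age and this gap cannot be told apart where the young and older samples do not overlap. What produced the gap was not tested.

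The levels of other cells were described by marker lists. Young samples had a mean of 8.14 ± 0.10 (SD, n = 3) over the 13 homeostatic microglia genes, middle-aged samples 8.48 ± 0.06 (SD, n = 4) and late middle-aged samples 8.51 ± 0.03 (SD, n = 4). Of these genes 4 rose from 2 to 18 months: P2ry12 (log2 change 1.58), a purine receptor of microglial processes, Gpr34 (1.13), P2ry13 (0.81) and Tmem119 (0.51). None fell, where 5.77% of all genes rose and 3.05% fell, and the median over the list was 0.27. A dimmer probe set of Csf1r was called higher, while its brightest had a log2 change of -0.18. P2ry12 and P2ry13 were also called at 10 against 2 months.

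When the homeostatic mean was subtracted from each sample, a setting chosen after seeing the data, 5 members were called higher at 18 against 2 months, where 2.06% of all genes were higher and 46.2% lower. Clec7a had a log2 change of 1.68 ± 0.21 (SE, limma, adjusted p = 0.000907), Cd68 1.07 ± 0.28, Lgals3 0.996 ± 0.30, Mpeg1 0.87 ± 0.20 and Cst7 0.74 ± 0.21. Ctss lay at 0.32 ± 0.13, under the 1.3-fold limit, and Itgax at 0.12 ± 0.10. Tyrobp was at 0.02 and Trem2 at -0.15. With the same mean as a covariate in place of the subtraction, Mpeg1 stayed called (2.09 ± 0.41, SE) and the other 4 did not: Clec7a was at 0.89 ± 0.53 (limma, adjusted p = 0.239), Cd68 at 0.41 ± 0.73, Cst7 at -0.13 ± 0.51 and Lgals3 at -0.34 ± 0.70. In that fit, in which 3644 of 18193 genes were called, Ctss was called higher (1.09 ± 0.26, SE) and Tyrobp lower (-1.90 ± 0.52, SE, limma, adjusted p = 0.0322). The estimates for Clec7a, Cd68, Lgals3 and Cst7 thus depended on how that mean was entered. The mean lay at 8.03 to 8.24 in young samples, 8.39 to 8.54 in middle-aged and 8.49 to 8.54 in late middle-aged ones. Young and older samples did not overlap in it, so the covariate fit cannot tell age and this mean apart. The median SE of the members in that fit was 0.51.

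**Figure D4:**
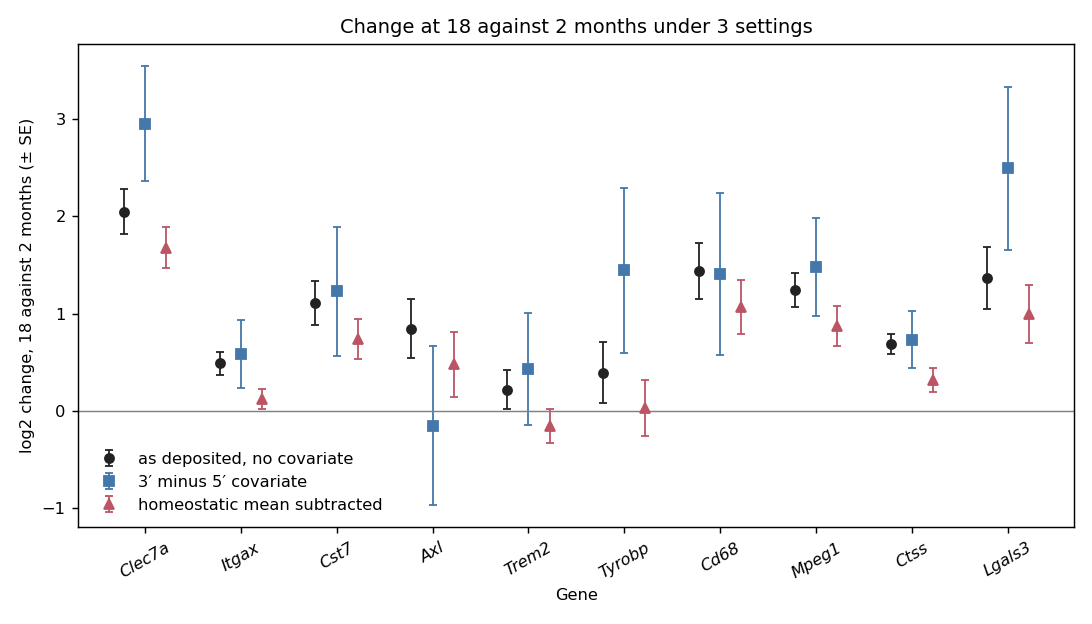
Log2 change at 18 against 2 months (vertical axis, ± SE) of the 10 genes under 3 settings: as deposited, with the gap between 3′ and 5′ signal as a covariate, and with the mean of the homeostatic microglia genes subtracted. Clec7a lies at 2.05, 2.96 and 1.68, whereas Axl crosses 0 with the covariate and Trem2 with the subtraction.

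Markers of other myeloid and blood cells did not rise with the members as lists. Of 8 border macrophage genes Mrc1 rose (log2 change 0.52) and Pf4 fell by 0.91 on the log2 scale, and their summed linear level ran from 600 to 718 at 2 months, 483 to 758 at 10 months and 498 to 600 at 18 months. Of 7 monocyte and neutrophil genes none was called in limma, with sums of 333 to 353, 289 to 397 and 281 to 321, and S100a8 and Chil3 were below the lower quartile of every array. Of 8 lymphocyte genes only Cd3d was called (-0.43), with sums of 473 to 532, 454 to 595 and 424 to 509, and Cd3g and Ms4a1 were below that quartile. None of 5 dendritic cell genes, which bear on Itgax, was called, and Xcr1 and Ccr7 were below the quartile. None of 3 blood genes, 6 astrocyte, 5 oligodendrocyte and 6 endothelial genes was called either at its brightest probe set. At 18 against 2 months the median log2 change was 0.47 over the astrocyte list, against -0.02 over all genes. It was 0.03 over the oligodendrocyte, 0.11 over the endothelial and -0.19 over the blood list. A dimmer probe set of the oligodendrocyte gene Cnp was called higher. Of 8 dopaminergic genes Th rose (0.84) and Foxa2 fell by 0.61 on the log2 scale, and 2 dimmer probe sets of Nr4a2 were called lower. The part of any such cells in the members' values was not tested.

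The pathways of the members were described by gene lists, each gene at its brightest probe set. From 2 to 18 months 5.77% of all genes rose and 3.05% fell. For Trem2 and Tyrobp, 1 of 15 measured genes of their signalling rose from 2 to 18 months, the lipid carrier Apoe (log2 change 0.74), and the median over the list was 0.12. For Clec7a, 1 of 7 signalling genes rose, the kinase Prkcd (0.92, with a second probe set at -0.12), with a median of -0.08. In these lists a dimmer probe set was called higher for Ptpn6 (0.78) and for Bcl10, whose brightest probe sets had changes of -0.07 and -0.24. The list of TAM receptors and their ligands has 6 genes, of which 1 is Lgals3, itself a member, and none of the others (Tyro3, Mertk, Gas6, Pros1 and Tulp1) was called in limma. Of 6 integrin partners and ligands of Itgax, Itgb2 was the one called. Itgb2 was also called higher at 10 against 2 months (0.99), where 1.0% of all genes rose.

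Around Ctss, the median log2 change of 13 other cathepsins and lysosomal proteases was 0.60. Of these 8 rose and none fell, where 5.77% of all genes rose and 3.05% fell. The 8 were Ctsz (1.19), Ctso (1.02), Lgmn (1.01), Ctsf (0.81), Ctsl (0.63), Ctsd (0.61), Ctsa (0.60) and Ctsb (0.60). Other probe sets of Ctsl (-0.30), Ctsf (-0.21), Ctsa (-0.11), Ctso (-0.076) and Ctsb (lowest -0.033) had a negative change and were not called, while further ones of Ctsb (1.57) and Ctsz (1.22) were called higher. Ctsz and Ctsf were also called at 10 against 2 months. Around Cst7, none of 6 other cystatins was called in limma. For Cd68, 1 of 7 genes of the lysosomal membrane rose, the cholesterol transporter Npc1 (1.22), with a median of -0.09. A dimmer probe set of Lamp2 was called higher (1.26) while its brightest had a change of -0.24. Around Lgals3, 1 of 8 galectins and partners rose, Lgals3bp (1.14).

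A further list of 25 measured genes of activated microglia had a median log2 change of 0.60 from 2 to 18 months. Of these 9 rose and none fell, where 5.77% of all genes rose and 3.05% fell. Apoe and the 4 cathepsins Ctsz, Ctsl, Ctsd and Ctsb stand in the lists above as well. The other genes of the 9 were the lysozyme Lyz2 (1.52), the MHC class I light chain B2m (1.14), the tetraspanin Cd9 (0.67) and the actin-capping protein Capg (0.60). A dimmer probe set of the ferritin gene Fth1 was called higher (0.91) as well. At 10 against 2 months 4 of the 25 were called higher (Ctsz, Apoe, Lyz2 and B2m), where 1.0% of all genes rose. At 18 against 10 months no gene of any pathway list was called.

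The gene most like each member over the 11 samples was sought among all genes that are not members. By Pearson's r it was Irf8, a transcription factor of the myeloid lineage, for Clec7a (0.93), Hscb for Itgax (0.97), Cyb5rl for Trem2 (0.96), Ms4a18 for Tyrobp (0.98) and Fbh1 for Axl (0.97). It was Mterf2 for Cd68 (0.98), Pls1 for Mpeg1 (0.99), Ermn for Ctss (0.95), Selenop for Cst7 (0.93) and Fundc1 for Lgals3 (0.96). These values describe 11 samples that share age and the array axis above. After subtracting the mean of each age the nearest gene was again Fbh1 for Axl (0.98) and another gene for each of the rest, such as Wiz for Clec7a (0.96) and Spsb4 for Tyrobp (0.99).

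Promoters of the members were searched because 7 of them rose together. PU.1, the ETS factor that controls much of the myeloid programme, binds sites around the core GAGGAA. RefSeq windows (GRCm38.p6) from 250 bases before to 50 bases after an annotated start were at hand for 9 of the 10 members, and not for Tyrobp. Clec7a had more than 1 window, of which the first is shown. On either strand, GAGGAA was found in the windows of 5 of the 9 (55.6%), against 31.3% of 27025 genes. The longer GAGGAAGT, which contains it, was found in 1 of 9 (Ctss), against 3.69% of genes. CACGTG, an E-box bound by regulators of lysosomal genes, was in none of the 9 and in 8.09% of genes. A match is a description of these letters and not a measured site.

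For the 5 genes with a match, 60 bases around 1 match are shown 5′ to 3′ on the strand of the gene, with the match in capitals (TTCCTC and ACTTCCTC are the reverse complements of GAGGAA and GAGGAAGT). Clec7a, Cd68 and Ctss rose, and Trem2 and Axl were not called. Positions are counted from the start that the RefSeq window uses. The bases shown for Axl lie before that start but inside the outer bounds of the annotated gene, which begins further upstream, and those of Ctss run from the upstream side to base 6 after the start. The match begins 96 bases before that start in Clec7a (chr6:129472843-129472902, minus strand), 130 in Axl (chr7:25788831-25788890, minus strand), 40 in Trem2 (chr17:48346334-48346393, plus strand), 225 in Cd68 (chr11:69666361-69666420, minus strand) and 2 in Ctss (chr3:95526732-95526791, plus strand).
Clec7a: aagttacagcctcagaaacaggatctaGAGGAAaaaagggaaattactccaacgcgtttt
Axl: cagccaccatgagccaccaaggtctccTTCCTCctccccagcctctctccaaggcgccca
Trem2: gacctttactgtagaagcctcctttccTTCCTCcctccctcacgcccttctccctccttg
Cd68: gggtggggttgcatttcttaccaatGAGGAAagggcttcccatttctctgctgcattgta
Ctss: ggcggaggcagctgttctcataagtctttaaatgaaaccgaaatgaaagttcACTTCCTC
Itgax, Cst7, Mpeg1 and Lgals3, which rose as well, held no match in their windows, so the letters were neither in all members that rose nor in them alone.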

How the data were processed

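Total RNA of the VTA was amplified and labelled in 2 cycles and hybridised to Affymetrix mouse expression arrays. The values deposited by the authors are on the log2 scale, 1 per probe set, after RMA background correction, quantile normalisation and summary. Limma 3.4.5 is also named in the submitters' notes. The file held 45101 probe sets, of which 64 control probe sets were left out of the tests. The array's annotation gave 34945 probe sets 1 gene, 932 several and 9160 none. All 12 member probe sets matched the reference gene table (GRCm38.p6) by gene number.

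A linear model of age alone was fitted in limma 3.58.1 (R 4.3.3), followed by eBayes, and the Benjamini-Hochberg adjustment ran over 45037 probe sets. The thresholds (adjusted p under 0.05 and 1.3-fold) are those of the study. The comparisons with 2 months share the young samples. RNA of 5 mice was pooled per array, so p-values speak to the spread among pools, not among mice. The number of arrays limits the precision. Tables were made with Python 3.11.15.

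The members and lists were chosen with earlier results of these data known. All members were named with every probe set, the nearest genes were taken by Pearson correlation, and of the pathway lists the called genes were named. The lists covered homeostatic microglia, TREM2-TYROBP signalling, Clec7a signalling, TAM receptors, integrin partners, lysosomal proteases, cystatins, lysosomal membrane, galectins and other activated microglia genes, and, as markers, border macrophages, monocytes and neutrophils, lymphocytes, dendritic cells, blood, dopaminergic neurons, astrocytes, oligodendrocytes and endothelium. Alternatives were separate arrays with and without a replicate block, median centring, a filter on low probe sets, covariates, an intensity trend in eBayes, fits of the compared ages alone, the mean of a gene's probe sets and leaving out each sample. Scanner files were not used here.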

Additional observations from a re-analysis of the deposited data

Results flagged for a closer look

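Mpeg1 at 10 months was singled out by a sample far from the others. Its log2 values were 9.13, 9.10, 9.84 and 9.19, and the gap between array 3 and the next value took up a share of 0.869 of the group's range, above Dixon's critical value for 4 samples. Of the 24 groups of 4 samples examined, 1 passed this limit, which chance does for about 1 in 20 groups. Array 3 also held the highest value of Axl and Ctss at that age and the lowest value of the other 7 members. What set this array apart was not tested.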

How the results depend on the processing

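Filtering low probe sets, an intensity trend and fits of only the ages compared left every member's direction and call as they were in all 3 comparisons. At 18 against 2 months leaving out 1 sample gave 3 to 8 called genes and probe sets. The count was 3 without young array 1 (Clec7a, Mpeg1 and Ctss), 4 without young array 2 (these and Cd68) and 8 without array 3 at 10 months, where 1.01%, 4.47% and 13.7% of all genes were called, against 8.82% with all samples. With the 3′ to 5′ gap as a covariate it was 0 (0.0% of genes), and with the homeostatic mean as a covariate it was 3 (3644 of 18193 genes), with Mpeg1 2.09 and Ctss 1.09 higher and Tyrobp -1.90 lower. At the other comparisons leaving out 1 sample gave 0 to 0. The count at 10 against 2 months was 1 with separate arrays and no replicate block, 0 with the block, 1 with median centring and 6 with the first component, and 3 at 18 against 10 months with that component. Directions turned as follows (log2 changes). With the 3′ to 5′ gap Axl was -0.16 at 18 against 2 and -0.24 at 10 against 2 months, and Tyrobp 0.068 at 18 against 10. The homeostatic mean did not overlap between young and older samples. With it as a covariate, at 18 against 2 months, Itgax was -0.11, Cst7 -0.13, Trem2 -0.95, Lgals3 -0.34 and Tyrobp -1.90. At 10 against 2 months Itgax was -0.32, Cst7 -0.86, Clec7a -0.33, Trem2 -0.91, Lgals3 -1.13, Cd68 -0.047 and Tyrobp -1.64. At 18 against 10 Trem2 was -0.040. With that mean subtracted Trem2 was -0.15 at 18 against 2 months, and at 10 against 2 Itgax was -0.11, Cst7 -0.065 and Trem2 -0.19. With the mean of its probe sets Trem2 was -0.068 at 18 against 10 months. Without 1 sample, at 18 against 10 months, Tyrobp ran from -0.34 to 0.20 (0.20, 0.025 and 0.071 where it turned) and Trem2 from -0.090 to 0.20 (-0.090 and -0.036 where it turned). The cause was not tested. Replicate numbers did not pair the samples (same-number correlations of deviations -0.61 to 0.43 over 12 pairs, with 0 of 12 arrays closest to their own number). With the replicate block 6 members and 6.72% of all genes were called at 18 against 2 months, against 11.6% of genes without the block. The log2 change of Itgax stayed 0.45 with an SE of 0.13 (limma, adjusted p = 0.0719). At 10 against 2 months Ctss was not called with the block (0.46, limma, adjusted p = 0.0877). Signal over background limits Cst7 and Lgals3 at 2 months, and at 10 months in the arrays where they lay below the lower quartile.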
